A study of Mus musculus with 2 samples.

Results

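The 61 genes described here encode the core and linker histones that cells make while they copy their DNA. They were chosen by name and by a measured value: every feature whose symbol began with Hist1h, Hist2h, Hist3h or Hist4h and that held at least 20 UMIs over all cells was taken, which kept 61 of 67 such symbols among 32285 genes. A UMI is a molecular tag, so a UMI count is a count of distinct captured RNA molecules. Since the members were selected on their UMI total, that total is not a result. The 6 symbols left out were Hist1h1t with 14 UMIs, Hist1h2aa and Hist2h2aa2 with 4 each, Hist1h2bq with 3, Hist1h4m with 2 and Hist1h2ba with 0. Just inside the minimum stood Hist1h4f with 143 UMIs and Hist1h4b with 199. The 61 genes comprise 5 linker histone H1 genes, 16 H2A, 16 H2B, 12 H3 and 12 H4 genes.

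The series holds 2 single-cell RNA libraries, 1 per group. The control library came from tumours of 4T1 cells, a mouse triple-negative mammary carcinoma line, that carried a control guide RNA and are labelled WT. The K2-KO library came from tumours of 4T1 cells given a guide RNA against K2 and labelled K2-KO, where K2 is Kindlin-2, the integrin-binding adaptor encoded by Fermt2. Both kinds of cell were injected into the mammary fat pad of female BALB/c mice, whose own stroma and immune cells are unedited. Tumours were removed at a volume of 150 mm3 and treated with collagenase and DNase for 45 min. Viable cells were sorted on mCherry, and which sorted fraction was loaded is not given in the sources used here. The age of the mice, the number of tumours per library and whether the edited cells were 1 clone or a pool are not given in the sources used here. With 1 library per group there is no replicate, so no test was made and no p-value is given. Every interval below is an exact 95% interval that covers counting error only, and a difference between the libraries cannot be told apart from a difference between any 2 tumours or library preparations.

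Most mRNAs end in a poly(A) tail, but the mRNAs of replication-dependent histones normally end in a short stem-loop that binds the protein Slbp. They are made in S phase, when new DNA must be packed into nucleosomes, and are degraded when replication stops. Nucleosomes hold pairs of H2A, H2B, H3 and H4, and H1 binds the DNA between them. Some of these genes also yield polyadenylated transcripts, known from cells that are not dividing. The libraries were primed on poly(A), per the labels, so the counts describe only that part of histone RNA which a poly(A) primer captured.

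The stem-loops are shown first because they are the feature that names the class. A stretch of 16 bases (GG, any 3 bases, TT, any 3 bases, A, any 3 bases, CC) whose first 6 bases pair with its last 6 was found in the GENCODE M21 transcript model of 42 of the 61 genes, against 0.383% of 58797 coding transcripts of the same annotation. For each of the 61 genes only the longest coding model was searched, whereas the background took in every coding transcript. Other models of the same gene were not examined. There were 8 different forms of the stretch. The 3 most frequent are printed here with the paired stem in capitals and the loop in lower case, followed by the form of Hist1h4i.
Form in 24 genes: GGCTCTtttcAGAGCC
Form in 6 genes: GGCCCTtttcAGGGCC
Form in 5 genes: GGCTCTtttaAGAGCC
Form in 2 genes: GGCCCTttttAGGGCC
The first form belonged to 3 H1, 9 H2A, 7 H2B and 5 H3 genes and to no H4 gene. The second and the last were found only in H4 genes. H3 genes held 3 of the 5 copies of the third form, and H2B genes the other 2.

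The 3′ ends of the models were sorted into 4 kinds, with a poly(A) signal taking precedence. In 15 genes such a signal (AATAAA or ATTAAA) stood in the last 40 bases. Of these 15 models 12 also held a stem-loop, which in Hist1h4h lay near the end, and 3 held none. Among the genes without a signal, the stem-loop lay within 100 bases of the model's end in 19 and farther away in 11, and 16 models held no stem-loop. On GRCm38, 49 genes lay on chromosome 13 between positions 21715763 and 23764406, 9 on chromosome 3, 2 on chromosome 11 and 1 on chromosome 6. Many copies are near-identical. In 25 genes fewer than 50% of the 50-base words in the last 350 bases were unique among the 61 genes, and for Hist1h2ap 0% were. How reads that match several copies were counted or left out was not examined, so levels of such genes are uncertain.

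RefSeq promoters (GRCm38.p6) were matched for 55 genes. The 250 bases before the start are printed for Hist1h1b, which had the largest cycling ratio in both libraries, for Hist1h2ap, which held most UMIs, and for Hist1h4i, which was higher in the knockout library in every state. Capitals mark matches, on either strand and with overlaps allowed, to CCAAT, to TATAAA or to the octamer ATTTGCAT.
Hist1h1b, chr13:21780626-21780875, minus strand: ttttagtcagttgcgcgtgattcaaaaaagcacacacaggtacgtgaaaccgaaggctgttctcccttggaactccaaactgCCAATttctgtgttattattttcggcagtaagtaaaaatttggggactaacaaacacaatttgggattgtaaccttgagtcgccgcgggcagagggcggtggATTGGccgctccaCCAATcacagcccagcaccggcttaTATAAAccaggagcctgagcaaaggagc
Hist1h2ap, chr13:21833476-21833725, minus strand: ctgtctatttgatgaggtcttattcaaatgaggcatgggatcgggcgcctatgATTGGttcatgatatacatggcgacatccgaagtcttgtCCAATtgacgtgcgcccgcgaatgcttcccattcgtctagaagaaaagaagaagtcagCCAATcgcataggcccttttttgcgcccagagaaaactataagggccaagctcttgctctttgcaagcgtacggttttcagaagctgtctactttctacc
Hist1h4i, chr13:22041363-22041612, minus strand: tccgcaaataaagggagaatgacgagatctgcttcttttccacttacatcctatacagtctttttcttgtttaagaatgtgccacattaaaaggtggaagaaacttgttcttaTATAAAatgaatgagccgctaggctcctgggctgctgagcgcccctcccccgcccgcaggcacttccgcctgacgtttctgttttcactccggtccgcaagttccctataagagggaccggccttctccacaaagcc
Over the 300-base RefSeq windows, CCAAT stood in 47 of the 55 promoters, against 37.4% of 32817 promoters. All 4 matched H1, 16 H2A, 14 H2B and 10 H3 promoters had it, and 3 of 11 H4 promoters did. TATAAA stood in 31 of 55, against 13.6%. ATTTGCAT stood in 11 of 55, against 1.74%, and these were 6 H2A and 5 H2B promoters. A match of letters does not show that a factor binds there.

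The libraries held 214163620 UMIs in 8038 barcodes (control) and 180774106 UMIs in 7250 barcodes (K2-KO), of which 7530 and 6761 cells were analysed, and 13 barcode sequences occurred in both. Tumour cells were those with at least 5 UMIs per 10000 from Epcam, Krt8 and Krt18 together and 0 UMIs of the leukocyte gene Ptprc, which gave 3823 control and 2431 K2-KO cells. Fermt2 stood at 41.9 UMIs per 1000000 (CPM) in control tumour cells and 17.3 in K2-KO tumour cells, a log2 ratio of -1.28 (-1.35 to -1.20). The position of the guide is not given in the sources used here, so a count of 3′ ends does not check the edit itself. Macrophage, T cell, neutrophil, NK and endothelial marker lists summed to between 0.24 and 22.3 CPM each in tumour cells and fibroblast markers to 39.0 and 37.5 CPM. The 11 markers of normal mammary gland summed to 40.7 CPM in the control and 203.5 CPM in the K2-KO library. Csn2 was at 0 in the control.

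Summed over the 61 genes, histone RNA made up 724 CPM of tumour cells in the control library (108558 UMIs, 720 to 728) and 1210.3 CPM in the K2-KO library (132896 UMIs, 1204 to 1217). That is 1.67-fold, or 0.74 on the log2 scale (0.73 to 0.75). The tumour cells were then split by Top2a, the topoisomerase made from S phase into mitosis, and Mcm6, a subunit of the replicative helicase made from late G1 on, each taken as high at 1 UMI per 10000 or more. No histone gene was used for this split. Cells with both genes low numbered 2735 in the control and 1384 in the K2-KO library, or 71.5% and 56.9% of tumour cells. Cells high in Mcm6 only numbered 388 and 323, cells with both high 283 and 387, and cells high in Top2a only 417 and 337.

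Histone RNA was concentrated in the cells with Top2a. In the control library it stood at 275 CPM in both-low cells, 190.0 in Mcm6-only cells, 1939 in both-high cells and 2108 in Top2a-only cells. In the K2-KO library the same states held 408, 324, 2366 and 2319 CPM. Both-high cells thus carried 7.06 times the both-low level in the control library, a log2 ratio of 2.82 (2.80 to 2.84), and the K2-KO log2 ratio was 2.54 (2.51 to 2.56). Mcm6 without Top2a went with the lowest level in both libraries, with log2 ratios to both-low cells of -0.53 (-0.58 to -0.48) and -0.33 (-0.38 to -0.29). Where any UMI of Top2a or Mcm6 counted as high, the K2-KO ratio turned to 0.047. Median depth per cell differed between these states, from 31353 UMIs in control both-low cells to 62247 in K2-KO both-high cells, and its part in these ratios was not tested.

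**Figure D1:**
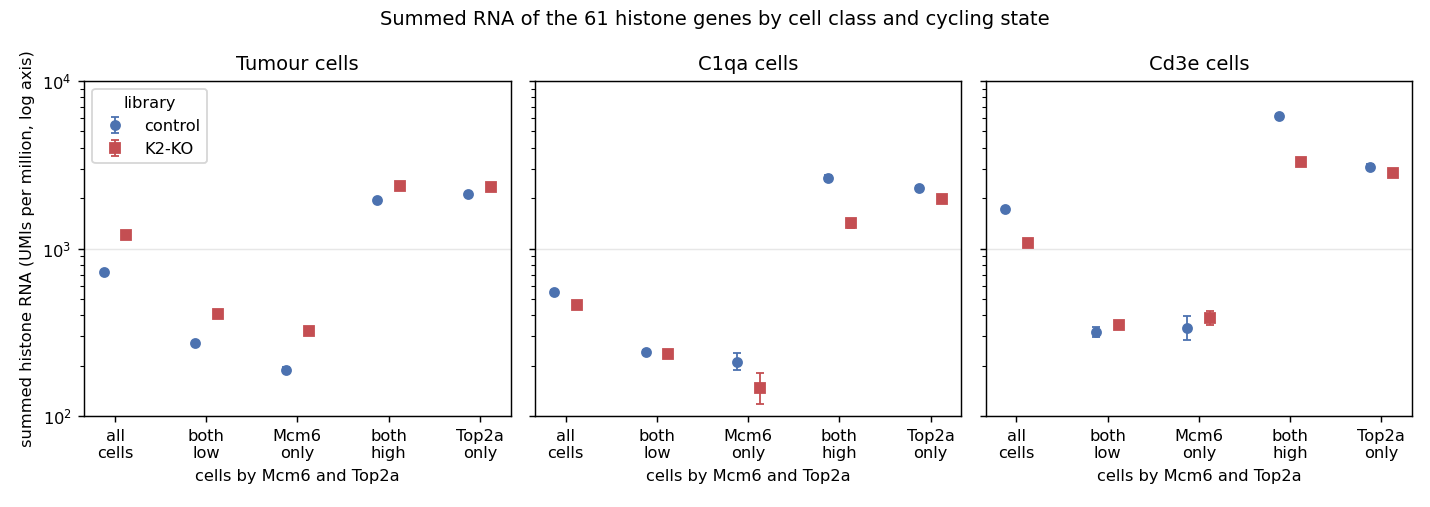
Summed RNA of the 61 histone genes in CPM (log axis) by cell class and by cycling state, with circles for the control and squares for the K2-KO library. Bars are exact Poisson 95% intervals, mostly smaller than the symbols, and cells with Top2a stand highest in each class, from 1421 to 6187 CPM.

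Within each state the gap between the libraries was smaller than over all tumour cells, except in Mcm6-only cells. The K2-KO over control log2 ratio was 0.57 (0.54 to 0.60) in both-low cells, 0.77 (0.71 to 0.83) in Mcm6-only cells, 0.29 (0.27 to 0.31) in both-high cells and 0.14 (0.12 to 0.16) in Top2a-only cells. Their plain mean was 0.44. The Top2a-only ratio turned to -0.021 when each cell counted equally and to -0.515 when any UMI of Top2a or Mcm6 counted as high. When the K2-KO states were weighted by the control's share of UMIs in each state, the K2-KO level became 901 CPM, 1.24-fold the control, against 1.67-fold unweighted. Without cells that carried 5 or more UMIs per 10000 of the gland markers the ratio over all tumour cells was 0.76. Top2a itself stood at 180.3 and 287.8 CPM in tumour cells and Mcm6 at 64.6 and 93.6 CPM. In bulk sums such as these, more cells in a state and more RNA per cell are told apart only as far as the split into states does so.

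Among the single genes, 53 of 61 were at least 1.5-fold higher in K2-KO tumour cells and 0 were at least 1.5-fold lower. Over all 17445 genes with at least 20 UMIs there, the shares were 19.0% higher and 6.81% lower. The median log2 ratio was 0.96 over the 61 genes and 0.12 over all genes. The ratio lay above 0 for 60 of the 61 genes, against 63.9% of all genes. The interval held 0 for Hist3h2a and Hist1h2bf. By family, 4 of 5 H1, 13 of 16 H2A, 14 of 16 H2B, 11 of 12 H3 and 11 of 12 H4 genes passed 1.5-fold, with median log2 ratios of 0.80, 0.92, 0.99, 1.20 and 0.93. In both-low cells 34 of 58 genes with at least 20 UMIs were 1.5-fold higher and 1 was lower, against 18.8% and 6.32% of all genes. In both-high cells 33 of 61 were higher and 0 lower, against 11.7% and 5.97%. The 2 libraries are shared by all of these comparisons.

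**Figure D2:**
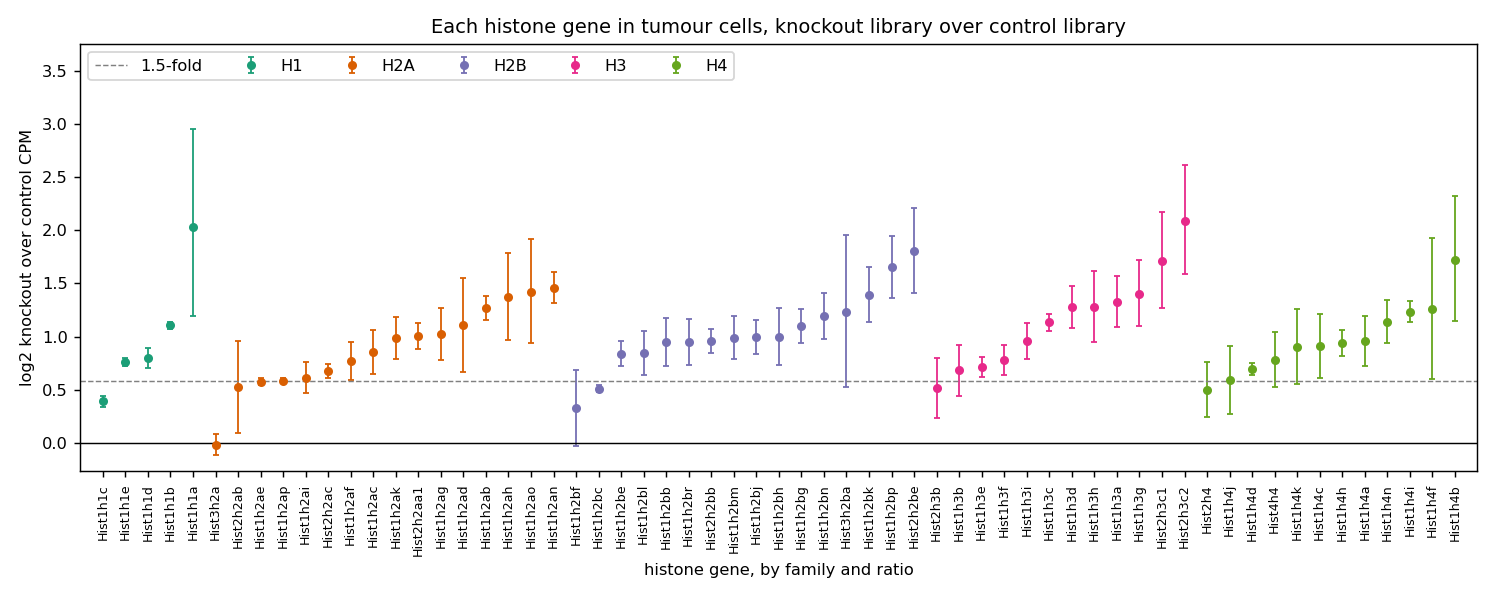
Log2 ratio of K2-KO over control CPM in tumour cells for each of the 61 genes, coloured by family and ordered within it. Bars are exact 95% intervals for counting error, the dashed line marks 1.5-fold, and Hist3h2a at -0.01 is the lowest point.

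The ratios between cycling states spanned a wider range than those between the libraries. From both-low to both-high cells, 50 of 58 genes with at least 20 UMIs were at least 1.5-fold higher in the control library and 3 were lower, against 12.7% and 20% of all genes. In the K2-KO library 56 of 61 were higher and 2 lower, against 12.3% and 21.1%. The ratios ran from -1.58 to 6.76 on the log2 scale in the control and from -1.71 to 7.20 in the K2-KO library, with medians of 2.80 and 2.77. Mcm6-only cells gave another order: 10 of 52 genes were higher than in both-low cells and 20 lower in the control (7.47% and 15.3% of all genes), and 14 of 55 higher and 7 lower in the K2-KO library (6.50% and 16.4%).

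**Figure D3:**
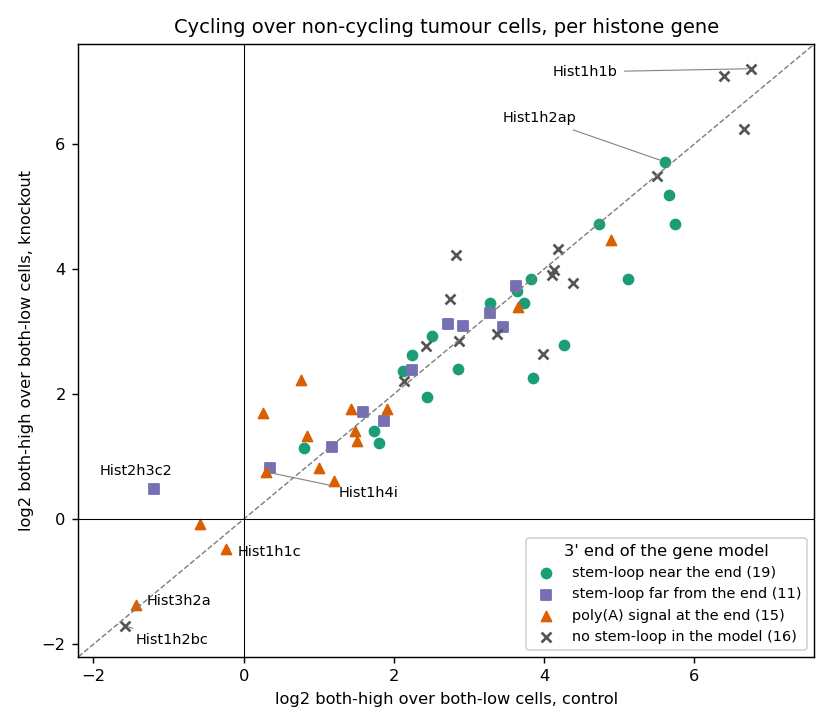
Log2 ratio of both-high over both-low tumour cells for each of the 61 genes in the control (horizontal) and the K2-KO library (vertical), with symbols for the 3′ end of the gene model and a dashed line of equality. Hist1h1b is farthest up at 6.76 and 7.20, and Hist1h2bc is farthest down at -1.58 and -1.71.

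The 4 kinds of model end had different median cycling ratios with ranges that largely overlapped. Genes with a stem-loop near the end had a median log2 ratio of 3.64 in the control and 2.93 in the K2-KO library. Genes with no stem-loop in the model had 4.04 and 3.84. Several models without a stem-loop are short, such as 312 bases for Hist1h4k and 381 for Hist1h2bl. A model that stops before its transcript does cannot show a stem-loop, so this kind may include genes that have one. Genes with a far stem-loop had 2.25 and 2.38. Genes with a poly(A) signal at the end had 1.00 and 1.33. In the control the ratios ran from -1.58 to 6.76 without a stem-loop, from -1.44 to 4.89 with a poly(A) signal, from -1.20 to 3.63 with a far and from 0.80 to 5.75 with a near stem-loop. Hist1h2bc, the gene with the lowest ratio, has no stem-loop in its model. These medians are descriptions of 11 to 19 genes each, and how well a poly(A) primer captures each kind of end was not tested.

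Among the linker histones, Hist1h1b, which encodes H1.5, showed the sharpest cycling pattern. It stood at 77.7 CPM in control and 168 CPM in K2-KO tumour cells, a log2 ratio of 1.11 (1.07 to 1.14). In both-low cells it stood at 3.01 and 3.07 CPM, and in both-high cells at 325 and 453. It was thus nearly absent from both-low cells in both libraries, and the libraries differed by 0.48 on the log2 scale among both-high cells. Hist1h1e, which encodes H1.4, stood at 63.7 and 108 CPM in all tumour cells, with 22.6 and 25.4 in both-low cells and 172 and 216 in both-high cells. Its model overlaps Hist1h2be and Gm11398 on the same strand, and how reads in the overlap were counted was not examined. Hist1h1d, the H1.3 gene, stood at 11.04 and 19.2 CPM, a log2 ratio of 0.80 (0.71 to 0.89). Hist1h1c, the H1.2 gene, was not much raised in cycling cells. It stood at 38.6 and 55.4 CPM in both-low cells, 33.0 and 40.0 in both-high cells and 48.1 and 57.0 in Top2a-only cells. In Mcm6-only cells it was lower, with a log2 ratio to both-low cells of -0.94 over both libraries together. Hist1h1a, the H1.1 gene, was rare, with 16 and 48 UMIs in all tumour cells, of which 18.8% and 20.8% came from 1 cell each.

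H2A genes supplied the largest share of histone UMIs in tumour cells, 43.8% in the control and 40.4% in the K2-KO library. Hist1h2ap alone supplied 21.2% and 19.0%. It stood at 153 and 230 CPM in all tumour cells, a log2 ratio of 0.59 (0.56 to 0.61). Within the both-low, both-high and Top2a-only states it was not higher in the K2-KO library, at 11.8 and 10.7, 575 and 561, and 534 and 493 CPM. Hist1h2ae stood at 95.3 and 142 CPM in all tumour cells, 314 and 319 in both-high cells and 352 and 315 in Top2a-only cells. For these 2 genes the ratio over all tumour cells was 0.59 and 0.57, and the both-high ratio -0.04 (-0.07 to 0.00) and 0.02 (-0.03 to 0.07). Hist2h2ac, of the chromosome 3 cluster, stood at 22.01 and 35.2 CPM, and at 64.5 and 74.7 in both-high cells. Hist3h2a stood at 13.6 and 13.4 CPM in all tumour cells and was lower in both-high cells (5.73 and 7.15) than in both-low cells (15.5 and 18.4). Its model overlaps Trim17 on the same strand. As a family H2A was 0.07 higher on the log2 scale in K2-KO both-high cells (0.04 to 0.09) and 0.07 lower in Top2a-only cells (-0.09 to -0.04). The family was 0.33 higher in both-low cells (0.27 to 0.40) and 0.30 higher in Mcm6-only cells (0.17 to 0.44).

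H2B held the largest share in both-low cells, with 41.5% and 46.0% of histone UMIs there against 5.58% and 7.51% in both-high cells. Most of this was Hist1h2bc, a gene whose model spans chr13:23684199-23692908 with introns and encodes an H2B. It stood at 99.7 CPM in control and 163 CPM in K2-KO both-low cells, and at 33.3 and 49.8 CPM in both-high cells. It was thus lower in cycling cells and supplied 36.3% and 39.9% of all histone UMIs of both-low cells. In all 4 states it was higher in the K2-KO library, with log2 ratios from 0.58 (both-high cells) to 0.98 (Mcm6-only cells). Left out, it changed the both-high over both-low ratio of the sum from 2.82 to 3.45 in the control and from 2.54 to 3.24 in the K2-KO library. Hist2h2bb stood at 7.28 and 14.1 CPM, with 2.23 and 3.55 in both-low cells and 16.3 and 25.5 in both-high cells, and its model overlaps Gm42743. Hist1h2bf was among the least changed, at 0.91 and 1.15 CPM (log2 0.33, -0.03 to 0.69). Hist2h2be was rare, at 0.49 and 1.72 CPM (log2 1.80, 1.41 to 2.21), and 10.6% of its K2-KO UMIs came from 1 cell.

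H3 and H4 genes gave few UMIs but some of the largest ratios between the libraries. Hist1h3c, the H3 gene with most UMIs, stood at 12.8 and 28.1 CPM (log2 1.13, 1.05 to 1.22), at 0.68 and 2.27 in both-low cells and at 36.3 and 59.5 in both-high cells. Hist1h3e stood at 11.1 and 18.2 CPM, but only 15.6% of its end words are unique among the 61 genes. Hist2h3c2 had the highest ratio of all, 2.09 (1.59 to 2.61), from 44 control and 137 K2-KO UMIs. Among genes with at least 50 UMIs, Hist1h3g, Hist1h3h and Hist1h2ag were most raised in Mcm6-only over both-low cells, by 1.61, 1.49 and 1.42 on the log2 scale over both libraries together, which differ in level and mix. By library the ratios were 0.33 and 2.05 for Hist1h3g, 1.76 and 1.07 for Hist1h3h and 1.08 and 1.27 for Hist1h2ag, from 5 to 31 UMIs each in Mcm6-only cells. Hist3h2a, Hist1h2bf and Hist1h1c stood lowest, at -1.12, -1.11 and -0.94. By library these were -1.23 and -1.08, -2.28 and -0.56, and -1.13 and -0.92.

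Of the H4 genes, Hist1h4d stood at 34.6 and 56.0 CPM in all tumour cells and at 67.2 and 96.0 CPM in both-high cells. Hist1h4i differed between the libraries in every state. It stood at 9.50 CPM in the control and 22.4 CPM in the K2-KO library (log2 1.24, 1.14 to 1.33). By state the log2 ratios were 0.89 (0.75 to 1.03), 1.49 (1.17 to 1.82), 1.34 (1.11 to 1.59) and 1.31 (1.11 to 1.52), in the order both low, Mcm6 only, both high and Top2a only. Its cycling ratio was small, 0.30 in the control and 0.76 in the K2-KO library. All of its end words are unique among the 61 genes. In C1qa and Cd3e cells, which are host cells, it stood at 14.5 and 9.11 CPM in the control library and at 14.8 and 9.74 CPM in the K2-KO library. The log2 ratio in C1qa cells was 0.03 (-0.20 to 0.27), and whether the classes differ was not tested.

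Cell by cell, histone RNA in Top2a-positive tumour cells spread over a wide range. In both-high cells the lower quartile, median and upper quartile were 1.30, 7.43 and 33.5 UMIs per 10000 in the control and 1.96, 9.17 and 36.4 in the K2-KO library. A level of 10 UMIs per 10000, chosen after the values were seen, divided these cells nearly evenly. At or above it stood 136 of 283 control both-high cells (48.1%, 42.1 to 54.05) and 189 of 387 K2-KO both-high cells (48.8%, 43.8 to 53.9). The same was so for Top2a-only cells, with 51.3% (46.4 to 56.2) and 49.9% (44.4 to 55.3). In both-low cells the shares were 4.35% (3.62 to 5.18) and 8.67% (7.24 to 10.3). Over all tumour cells 476 control cells (12.5%, 11.4 to 13.5) and 488 K2-KO cells (20.1%, 18.5 to 21.7) stood at or above it, and they held 72.7% and 80.8% of the histone UMIs. At 20 UMIs per 10000 the shares of all tumour cells were 7.85% and 12.8%, and those of both-high cells 39.2% and 40.6%. Intervals treat cells as independent draws from 1 library each.

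**Figure D4:**
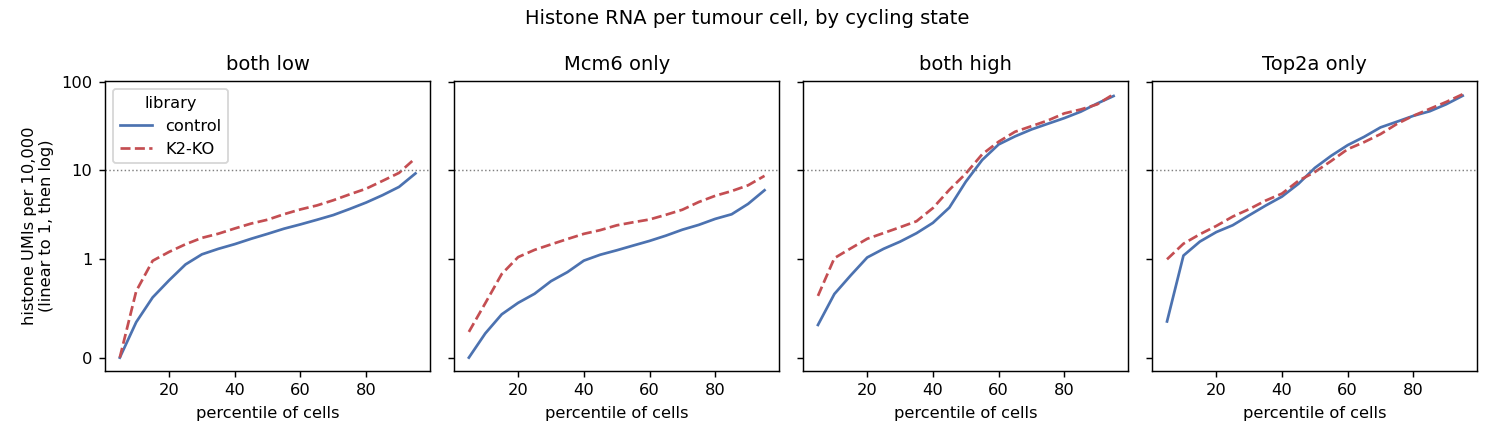
Histone RNA per tumour cell in UMIs per 10000 (linear to 1, then log) at each percentile of cells from 5 to 95, in the 4 cycling states, with a solid line for the control and a dashed line for the K2-KO library. The dotted line marks 10 UMIs per 10000, which both lines cross near the middle of the both-high and Top2a-only panels.

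The histone-high cells of the both-high state differed from the histone-low cells of that state in other cycle genes. All 20 genes of a G2 and M phase list were at least 1.5-fold higher in the histone-high cells of the control library, and 19 of 20 in the K2-KO library, against 4.79% and 6.23% of all genes. The medians were 1.69 and 1.33 on the log2 scale. Nusap1, a spindle microtubule protein, stood at 18.3 CPM in histone-low and 114 CPM in histone-high control cells, and at 16.3 and 102 CPM in the K2-KO library. Ccnb1, the mitotic cyclin B1, stood at 13.04 and 39.8 CPM in the control and at 16.8 and 39.9 CPM in the K2-KO library. The S phase list was divided: 8 of 24 genes were at least 1.5-fold lower and 1 higher in the control, and 6 lower and 3 higher in the K2-KO library, against 5.21% and 6.27% of all genes lower. The lowest was Ung, a uracil-DNA glycosylase, at 42.0 and 10.1 CPM in the control and 37.2 and 11.3 in the K2-KO library. Cdc6, which loads the helicase, stood at 48.3 and 20.3 CPM and at 40.6 and 18.2 CPM. The highest was Ccne1, the cyclin E1 of entry into S phase, at 13.3 and 21.9 CPM in the control and 10.1 and 16.5 CPM in the K2-KO library. Top2a, which defined the state, was itself higher in histone-high cells, by 1.53 in the control and 1.42 in the K2-KO library, and Mcm6 was lower, at -0.35 and -0.37. Median depth was 57573 UMIs in histone-high and 50722 in histone-low control cells. The part of these differences in the result was not tested. In Top2a-only cells the G2 and M phase difference was not seen in the control library and was smaller in the K2-KO library. The S phase medians had the other sign. There 1 of 20 G2 and M phase genes was higher and 1 lower in the control (5.35% and 4.48% of all genes), and 5 were higher and 1 lower in the K2-KO library (4.63% and 10.3%), with medians of -0.06 and 0.20. The S phase medians were 0.32 and 0.45 there, with 5 of 24 genes higher and 2 lower in the control and 9 higher and 1 lower in the K2-KO library. Whether the states differ was not tested.

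**Figure D5:**
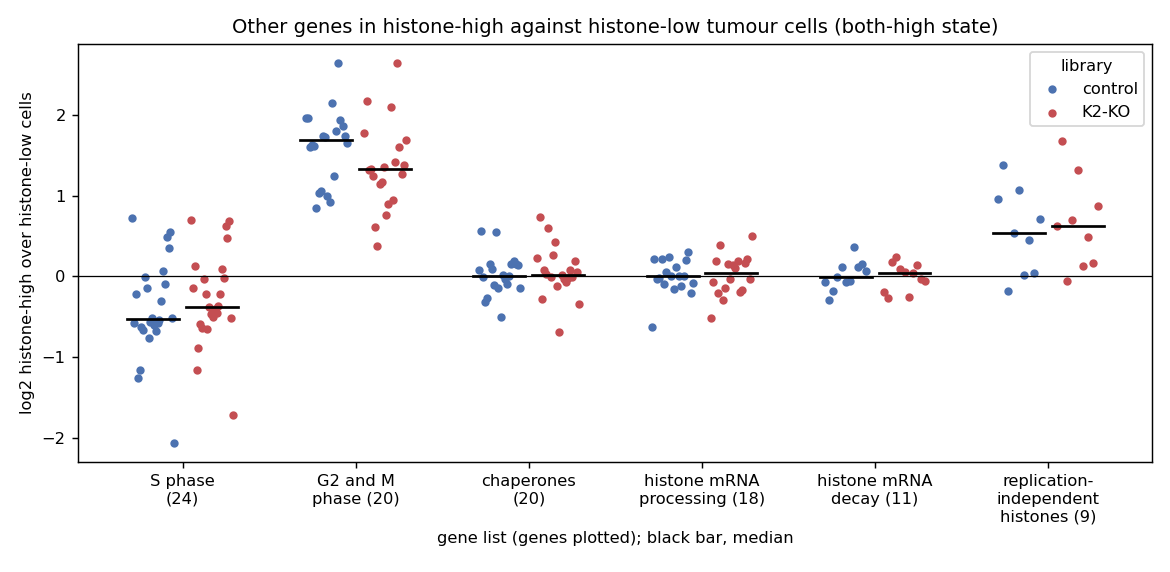
Log2 ratio of histone-high over histone-low both-high tumour cells for each gene of 6 lists that hold none of the 61 genes, with control and K2-KO points side by side and a black bar at each median. G2 and M phase genes lie above 0 in both libraries (medians 1.69 and 1.33), and S phase medians lie below it at -0.53 and -0.37.

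The histone genes grouped as replication-independent had a median log2 ratio of 0.04 between the libraries. Of these 11 genes, 2 were at least 1.5-fold higher in K2-KO tumour cells and 0 lower, a share near the 19.0% of all genes. Some of them still differ with the cell cycle: in Top2a-only over both-low cells their median was 1.15 in the control and 0.85 in the K2-KO library. The highest were Cenpa, the centromeric H3, at 3.25 in the control and H2afx, the H2A.X gene, at 2.78 in the K2-KO library. The 2 were H2afy2 and H1fx, both rare, at 0.19 and 0.71 CPM and at 0.17 and 0.39 CPM. H3f3b, an H3.3 gene and the most abundant of the list, stood at 2409 and 2201 CPM. H2afz, the H2A.Z gene, stood at 594 and 820 CPM and was also higher in both-high than in both-low cells, by 1.95 in the control and 1.80 in the K2-KO library. H1f0, the linker histone of resting cells, stood at 264 and 299 CPM. Within both-high cells it was higher in histone-high cells, at 133 and 347 CPM in the control and 139 and 443 CPM in the K2-KO library.

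Genes that make, process or degrade histone mRNA, and genes of histone chaperones and an acetyltransferase, had ratios nearer 0 than the histone genes. Of 18 genes for transcription and 3′ processing, 1 was at least 1.5-fold higher in K2-KO tumour cells: Cpsf2, a subunit of the cleavage complex, at 38.3 and 58.3 CPM. Slbp, the stem-loop binding protein, stood at 75.2 and 83.0 CPM over all tumour cells. By state it was highest in both-high cells, at 157 CPM in the control and 137 CPM in the K2-KO library, against 65.9 and 72.02 in Top2a-only cells and 60.2 and 58.4 in both-low cells. Summed histone RNA had another order in the control library, with 2108 CPM in Top2a-only cells beside 1939 CPM in both-high cells. In the K2-KO library it was highest in both-high cells too, at 2366 CPM, but with 2319 CPM in Top2a-only cells. None of 11 decay genes passed 1.5-fold between the libraries, and Eri1, the exonuclease that trims histone mRNA ends, stood at 32.0 and 34.4 CPM. Of 20 genes of the chaperone and acetyltransferase list, 1 passed, Mms22l, at 14.8 and 25.1 CPM. The S phase list had 5 of 24 genes higher, near the 19.0% of all genes, and a median of 0.43. The G2 and M phase list had 1 of 20, Kif11, and a median of 0.16. Within both-low, Mcm6-only, both-high and Top2a-only cells the S phase medians were -0.01, -0.19, -0.20 and 0.10. In the same order the G2 and M phase medians were 0.33, 0.33, -0.06 and -0.43. Those of the histone genes were 0.71, 0.99, 0.64 and 0.36. The part of cycling differences that remain within a state was not tested.

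Histone RNA was also highest with Top2a in host cells, but over each whole class the K2-KO library stood below the control. C1qa cells, taken by the macrophage complement gene C1qa, numbered 1272 and 864. They held 554 CPM of histone RNA in the control and 459.95 CPM in the K2-KO library, a log2 ratio of -0.27 (-0.31 to -0.23). In both-low C1qa cells the levels were 241 and 236 CPM, and in both-high C1qa cells 2650.2 and 1421 CPM. The both-high groups held 31 and 23 cells, and 1 cell supplied 17.8% and 32.2% of their histone UMIs. Of 54 histone genes with at least 20 UMIs in these cells, 7 were at least 1.5-fold higher in the K2-KO library and 6 lower, against 10.0% and 4.03% of all genes.

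Cd3e cells, taken by the T cell receptor subunit gene Cd3e, numbered 474 and 786. Their histone RNA stood at 1713 CPM in the control and 1087 CPM in the K2-KO library, a log2 ratio of -0.66 (-0.70 to -0.61). Few cells carried this difference. The median Cd3e cell held 2.32 UMIs per 10000 in the control and 2.53 in the K2-KO library. The 54 of 474 control cells at or above 10 UMIs per 10000 held 87.8% of the histone UMIs, and 81 of 786 K2-KO cells held 78.5%. Both-low Cd3e cells held 317 and 352 CPM, and both-high Cd3e cells 6187 and 3309.8 CPM in 33 and 46 cells. Of 50 histone genes, 0 were at least 1.5-fold higher and 19 lower, against 9.28% and 11.7% of all genes. Fibroblast markers summed to 2238 CPM in control and 1045 CPM in K2-KO Cd3e cells. They came mostly from 11 and 8 cells with at least 5 UMIs per 10000 of them, and without those cells the log2 ratio was -0.77. At the control's mix of states it was -0.44. NK cell markers summed to 703 and 244 CPM and their part was not tested.

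Neutrophils, which do not divide, were taken for comparison. Their libraries are shallow, and free RNA from other cells was not measured separately. The 3 tumour markers summed to 65.5 and 44.7 CPM in them, against 4397 and 3888 CPM in tumour cells. Both classes were limited on these markers, so this gap follows from the class rules and does not measure free RNA. In 392 and 165 neutrophils the histone sum stood at 321 and 302 CPM, from 343 and 162 UMIs, 17 of the latter in 2 cells with Top2a. Over both libraries Hist1h2bc stood at 119 CPM, Hist1h1c at 41.7 and Hist1h4i at 33.6, while Hist1h2ap stood at 4.98 and Hist1h1b at 4.36 CPM. For the first 3 this was above the control tumour level. Against K2-KO tumour cells, Hist1h1c in neutrophils stood below their 48.4 CPM. Hist1h2ap and Hist1h1b stood below the tumour levels of both libraries. With every cell thinned to 2000 UMIs, so that depth is equal, and 112 and 97 shallower tumour cells left out, 41.7% of control (40.1 to 43.3) and 53.8% of K2-KO tumour cells (51.8 to 55.9) held a UMI of any of the 61 genes. Before thinning, 93.3% and 95.5% did, with a median of 34991 and 38668 UMIs per cell. Neutrophils held 42.0% and 42.6% after the same thinning, from a median of 2596 and 2820 UMIs per cell and without 87 and 24 shallower cells. A UMI of any of the 61 genes thus did not set tumour cells apart from neutrophils in the control library. Hist1h2ap did: 9.84% (8.90 to 10.8) and 12.5% (11.2 to 13.9) of tumour cells against 0.98% (0.20 to 2.85) and 0% (0 to 2.58) of neutrophils.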

How the data were processed

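Cells from 2 libraries, control and K2-KO, were compared. The deposited values are UMI counts per gene and cell, made by the authors with Cell Ranger 2.1.1 on mm10, per the submitters' processing notes, while the matrix header names version 6.0.1. The barcode suffixes 1 and 2 were matched to the libraries by their number. Cells with at least 500 UMIs, 200 genes and at most 20% mitochondrial UMIs were kept, and doublets called by Scrublet in scanpy 1.11.5 were removed (2.80% and 2.89%). C1qa cells had at least 5 UMIs per 10000 of C1qa, some Ptprc and 0 Cd3e. Cd3e cells had some Cd3e and 0 C1qa. Neutrophils had at least 100 UMIs per 10000 of S100a8 and S100a9, 0 C1qa and 0 Cd3e. All of these host classes also had fewer than 5 UMIs per 10000 of Epcam, Krt8 and Krt18 together.

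UMIs were summed per library, class and state and divided by all UMIs of those cells (CPM). A UMI marks a 3′ end, so levels were not divided by length. Intervals are exact Poisson for levels, conditional binomial for ratios and Clopper-Pearson for shares, computed with scipy 1.17.1. Genes needed 20 UMIs in a comparison, and calls were made at 1.5-fold. The calculation was tested on simulated data. The members and lists were chosen with earlier results of these data known. Named genes were the 12 with most UMIs in tumour cells, the 2 with most per family, the 3 highest and 3 lowest between libraries and between Mcm6-only and both-low cells (at least 50 UMIs), and the 3 highest in C1qa and in Cd3e cells. From the comparison lists the highest, lowest and most abundant genes were named, and Cdc6, Ccnb1, Slbp, Eri1 and H1f0 were chosen after their values were seen. Other scalings, class limits and left-out genes or cells were tried as alternatives.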

Additional observations from a re-analysis of the deposited data

Results flagged for a closer look

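The summed histone RNA stood lower in the K2-KO library in both host cell classes, opposite to tumour cells, where the log2 ratio was 0.74. The log2 ratio was -0.27 in C1qa cells and -0.66 in Cd3e cells, with 1 library per group, and the difference between cell classes was not tested. Among both-low cells alone it was -0.03 (-0.10 to 0.03) in C1qa and 0.15 (0.03 to 0.27) in Cd3e cells.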

How the results depend on the processing

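Over 16 results and 16 settings, 111 of 194 values stayed within their counting interval (counts of genes, within 1.5 times), 80 moved farther and 3 turned sign. The count of genes at least 1.5-fold higher in K2-KO tumour cells ran from 48 to 56, with 0 lower throughout, and scaling by the median gene shifted the ratios over all tumour cells by 0.11. The sum's ratio in all tumour cells was 0.71 with totals free of mitochondrial and ribosomal protein genes, 0.63 scaled by the median gene, 0.59 as a mean over cells, 0.78 without Hist1h2ap, 0.77 without Hist1h2bc, 0.83 with tumour markers at 20 UMIs per 10000, 0.32 at the control mix of states and 0.76 without gland marker cells. The mean over states was 0.42, 0.38, 0.28, 0.52, 0.39 and 0.51 under the first 6 of these, and 0.27 with Top2a and Mcm6 split by any UMI. Both-high over both-low cells gave, in the control and K2-KO libraries, 2.88 and 2.62 scaled by the median gene, 2.67 and 2.27 as a mean over cells, 2.38 and 2.18 without Hist1h2ap, 3.45 and 3.24 without Hist1h2bc, 2.76 and 2.46 with the stricter tumour limit, and 1.93 and 2.08 split by any UMI. It was 2.72 in the control with the split at 2 UMIs per 10000 and 2.56 in the K2-KO library without gland marker cells. C1qa cells gave -0.21 as a mean over cells and -0.21 without Hist1h2ap. Cd3e cells gave -0.57 as a mean over cells, -0.44 at the control mix and -0.77 without fibroblast marker cells. The ratio in Top2a-only cells turned to -0.021 as a mean over cells and -0.515 split by any UMI, and Mcm6-only over both-low K2-KO cells turned to 0.047 split by any UMI; the cause was not tested. The settings without Hist1h2bc, gland marker cells, fibroblast marker cells or the host cell with most histone UMIs, and the control mix, were chosen after seeing the data. No paired analysis was possible because each group has 1 library.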
